A study of Gallus gallus with 9 samples.

Results

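The genes for heterotrimeric G proteins and for the enzymes that make, limit and break down their second messengers were followed in a chick retinal layer, that of the amacrine cells. Members were chosen by name, as chicken probe sets with a single gene symbol that matched set patterns. The patterns covered G alpha, G beta and G gamma subunits, RGS proteins, adenylyl cyclases, guanylyl cyclases and numbered phosphodiesterases. They did not take in the G protein subunits GNAL, GNGT1 and GNGT2, which were listed with the rest of the pathway. The visual arrestins, opsins and channels were not part of the set, and GNG13 and GNB3 were left out because they served as markers of bipolar cells. The names gave 187 probe sets of 80 genes, out of 37693 chicken probe sets and 13008 genes with 1 symbol. Of the 80 genes, 5 were classed as matching by spelling only: GNB1L, PDE4DIP, PDE6D, PDE12 and RGSL1. The RGS family also holds RGS7BP and RGS9BP, which are anchors of RGS proteins and no RGS proteins themselves.

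RNA from the layer, captured by laser from retinal sections, was hybridised to Affymetrix Chicken Genome arrays, which read each gene with short oligonucleotides grouped into 1 or several probe sets. The control group held 3 samples from untreated chicks of the same age. The plus lens group held 3 samples from chicks that wore a 7 D lens over 1 eye for 24 h, a lens that slows eye growth, and the minus lens group 3 samples from chicks that wore a -7 D lens for 24 h, which speeds it. Lights of 500 lux were on for 12 h a day for all chicks. The labels name no strain or age and do not tie a sample to a bird, so that the p-values rest on a spread among the 3 samples of a group that may be technical.

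A receptor on the cell surface switches on a G protein by making its alpha subunit exchange GDP for GTP, after which the alpha subunit and the beta-gamma pair each act on effectors. G alpha s drives adenylyl cyclase to make cAMP, the G alpha i group restrains it, and G alpha q acts through phospholipase C. RGS proteins speed the hydrolysis of GTP and so shorten the signal, while phosphodiesterases break down cAMP and cGMP. Amacrine cells are retinal interneurons that carry many such receptors, among them those for dopamine, peptides, glutamate and acetylcholine, and nitric oxide acts in the inner retina through soluble guanylyl cyclase.

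Of the 187 member probe sets, 64 (34.2%), read from 42 genes, passed a filter of log2 4 or more on 3 or more of the 9 arrays and could be tested, against 34.4% of all chicken probe sets. The other 123 probe sets stayed below this filter, and 38 genes had no probe set above it. In controls 25 members lay between log2 4 and 6, 31 between log2 6 and 10, and 8 at log2 10 or above. The median control level of the tested members was log2 6.55, against 6.88 for all tested probe sets. The median residual SD within groups was 0.24 for the members and 0.24 for all tested probe sets. The intensity of a probe set depends on its own oligonucleotides as well as on the RNA, so levels describe each probe set and do not order the genes by abundance. A probe set below the filter says only that its signal was near the floor, since a dim probe set can belong to a transcribed gene.

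**Figure D1:**
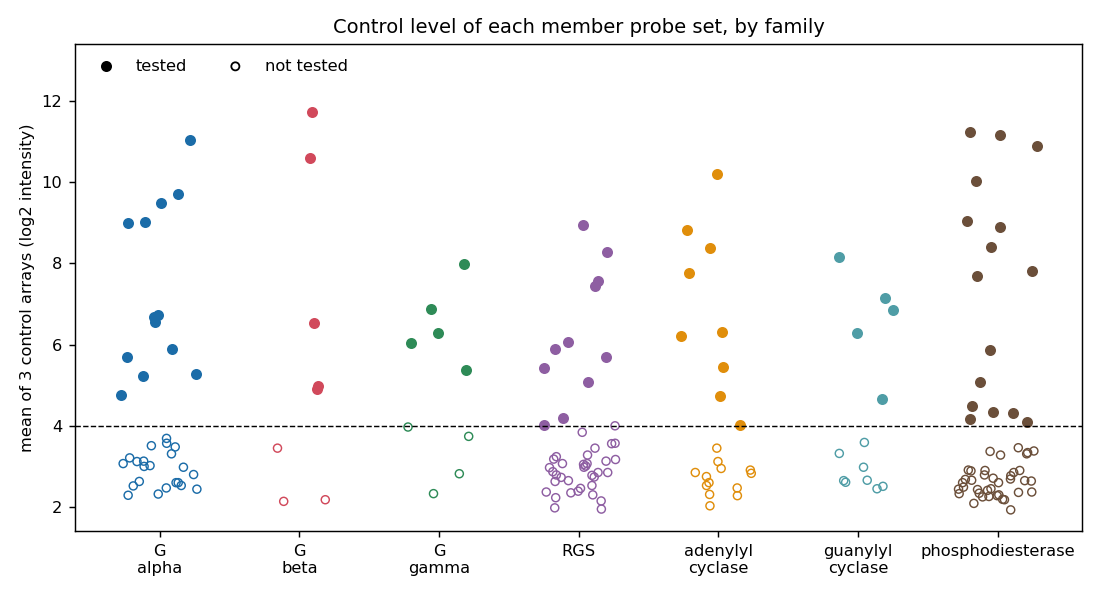
Mean log2 intensity of the 3 control arrays for each of the 187 member probe sets, by family, with filled points for the 64 that were tested and open points for the 123 that were not. The dashed line is the log2 4 filter, and the 8 probe sets at log2 10 or above belong to GNAS, GNB1, GNB5, ADCY8, PDE3B and, with 3 of them, PDE4D.

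Among the G alpha subunits, 13 of 35 probe sets from 9 of 14 genes were tested. The G alpha i, o and z group was read for all 5 of its genes. On the control arrays GNAI3 gave log2 9.67, 9.74 and 9.69, and GNAI1 gave 9.58, 9.35 and 9.54. GNAZ, a G alpha subunit that also restrains adenylyl cyclase but is insensitive to pertussis toxin, gave 9.05, 8.96 and 8.97 at its brighter probe set and a mean of 5.90 ± 0.19 (SD, n = 3) at the other. GNAO1, the main G alpha subunit of neurons and of the ON bipolar cell cascade, was read at 2 tested probe sets with control means of 5.27 ± 0.07 and 5.23 ± 0.15 (SD, n = 3), and its remaining probe set stayed between 3.09 and 3.57 on all 9 arrays. GNAI2 had a control mean of 6.68 ± 0.17 (SD, n = 3).

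GNAS, which encodes G alpha s, was tested at 3 of its 6 probe sets, with control means of 11.03 ± 0.06, 9.02 ± 0.16 and 6.74 ± 0.27 (SD, n = 3). GNAQ was tested at 1 of 3 probe sets, with a control mean of 4.76 ± 0.21, and GNA11, the other member of the G alpha q group above the filter, at 5.69 ± 1.05 (SD, n = 3). The GNA11 probe set had the widest spread of the set, with 6.86, 5.37 and 4.84 on the controls, so that its level is uncertain. GNA13, of the G alpha 12 group, had a control mean of 6.55 ± 0.07 (SD, n = 3), and GNA12 stayed below the filter. The subunits of the light and taste cascades were below it throughout: GNAT1 of rods, GNAT2 of cones and GNAT3, gustducin, had 0 of 4 probe sets tested, with highest control means of 2.53, 3.07 and 3.02.

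Of the G beta subunits, GNB1 gave log2 10.61, 10.63 and 10.52 on the controls at 1 probe set and stayed between 2.11 and 2.17 on all arrays at the other. GNB5, the unusual beta subunit that pairs with RGS proteins of the R7 group in place of a gamma subunit, gave 11.56, 11.99 and 11.60 at 1 probe set and 6.64, 5.99 and 6.97 at the other. The brighter one held the highest control level among the members. GNB4 stayed below the filter. Among the G gamma subunits, GNG10 gave 7.95, 7.95 and 8.03 on the controls, GNG2 had control means of 6.87 ± 0.05 and 5.38 ± 0.02, GNG4 one of 6.29 ± 0.33 and GNG5 one of 6.04 ± 0.04 (SD, n = 3). GNG11 and GNG12 were below the filter.

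By share of probe sets the RGS family was the most sparsely read, with 11 of 46 tested, from 9 of 21 genes. RGS4, a small RGS protein of neurons that acts on G alpha i and q, gave 8.10, 8.59 and 8.12 on the controls, and RGS16, of the same R4 group, gave 7.78, 7.59 and 7.32. RGS3, RGS2 and RGS5 had highest control means of 6.06, 5.09 and 4.19, while RGS1, RGS13 and RGS18 stayed below the filter. Of the R7 group, which partners GNB5, only RGS7 passed: its probe sets had control means of 7.43 ± 0.10 and 5.42 ± 0.16 (SD, n = 3). RGS9, whose retinal form shuts off transducin in photoreceptors, was read by 5 probe sets, and none exceeded log2 3.41 on any array; RGS6 and RGS11 had highest control means of 3.57 and 2.85. RGS9BP, the membrane anchor of RGS9, was above the filter, with 8.71, 9.02 and 9.08 on the controls, while RGS7BP, the anchor of the neuronal R7 proteins, had a control mean of 2.30. From the other groups RGS14 (5.89) and RGS17 (5.70) were tested, and RGS10, RGS12, RGS19 and RGS20 were not.

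Of the adenylyl cyclases, 4 of 7 genes were tested at 9 of 22 probe sets, and the brightest were those of the cyclases that calcium and calmodulin stimulate. ADCY8 gave log2 10.11, 10.03 and 10.48 on the controls at its brightest probe set, with means of 8.83 ± 0.33 and 6.31 ± 0.24 (SD, n = 3) at the others. ADCY1 was tested at 4 of 7 probe sets, with control means of 8.37 ± 0.25, 7.77 ± 0.14, 6.20 ± 0.00 and 4.02 ± 0.25 (SD, n = 3). ADCY9 and ADCY2 had control means of 5.45 ± 0.01 and 4.73 ± 0.24 (SD, n = 3), and ADCY3, ADCY6 and ADCY7 stayed below the filter.

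The soluble guanylyl cyclase, the receptor for nitric oxide, is a pair of an alpha and a beta subunit, and the arrays read only alpha subunits above the filter. GUCY1A3 gave 8.07, 8.27 and 8.14 on the controls at its brightest probe set and had means of 6.29 ± 0.20 and 4.67 ± 0.08 (SD, n = 3) at the other tested ones. GUCY1A2 had control means of 7.14 ± 0.12 and 6.86 ± 0.06 (SD, n = 3). The beta subunits GUCY1B3, with 1 probe set, and GUCY1B4, with 2, had highest control means of 2.61 and 3.32. The receptor cyclases stayed at the floor: on all 9 arrays the GUCY2D probe set lay between 3.44 and 3.66, and the probe sets of GUCY2C, the receptor for guanylin, between 2.60 and 2.94.

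Of the phosphodiesterases, those specific for cAMP were read at 8 of 19 probe sets, those that split both nucleotides at 5 of 16, and those specific for cGMP at 1 of 12. The 1 cGMP probe set read was that of PDE6G, an inhibitory subunit, and no catalytic subunit specific for cGMP was tested. PDE4D, a cAMP phosphodiesterase of neurons, had control means of 11.24 ± 0.11, 11.17 ± 0.20 and 10.90 ± 0.06 at 3 probe sets and 4.10 ± 0.27 at the fourth (SD, n = 3). PDE4B had control means of 8.89 ± 0.14 and 7.82 ± 0.03, with the remaining probe set between 2.71 and 3.04 on all arrays, and PDE4C one of 8.40 ± 0.32 (SD, n = 3). Among the dual enzymes PDE3B gave 9.90, 10.11 and 10.09 on the controls, and PDE10A, best known from the striatum, gave 9.07, 9.16 and 8.92. The cGMP phosphodiesterase of photoreceptors was near the floor at its catalytic subunits, with PDE6B between 2.39 and 2.64 and PDE6C between 2.60 and 3.09 on all 9 arrays. Its cone inhibitory subunit PDE6H lay between 2.31 and 2.37. The rod inhibitory subunit PDE6G was above the filter at 1 of 2 probe sets, with 6.35, 5.63 and 5.64 on the controls, and PDE6D, which is a chaperone of prenylated proteins and no phosphodiesterase, had a control mean of 7.70 ± 0.33 (SD, n = 3). PDE5A and PDE9A stayed below the filter on the controls.

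Some members lie next to each other in the chicken genome, in the gene order of RefSeq's GRCg7b annotation, and 10 such neighbouring pairs were found. Each transducin or gustducin gene had a G alpha i gene beside it: GNAT3 beside GNAI1 on chromosome 1, GNAT1 beside GNAI2 on chromosome 12 and GNAT2 beside GNAI3 on chromosome 26. In all 3 pairs the G alpha i gene had a probe set above the filter and its neighbour had none. GUCY1A3 and GUCY1B3, the subunits of one enzyme, are neighbours on chromosome 4, and the first passed the filter at 3 of 5 probe sets while the only probe set of the second did not pass. On chromosome 8, RGS4, RGS2, RGS13 and RGS1 follow each other, and the first pair passed while the second pair did not.

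**Figure D2:**
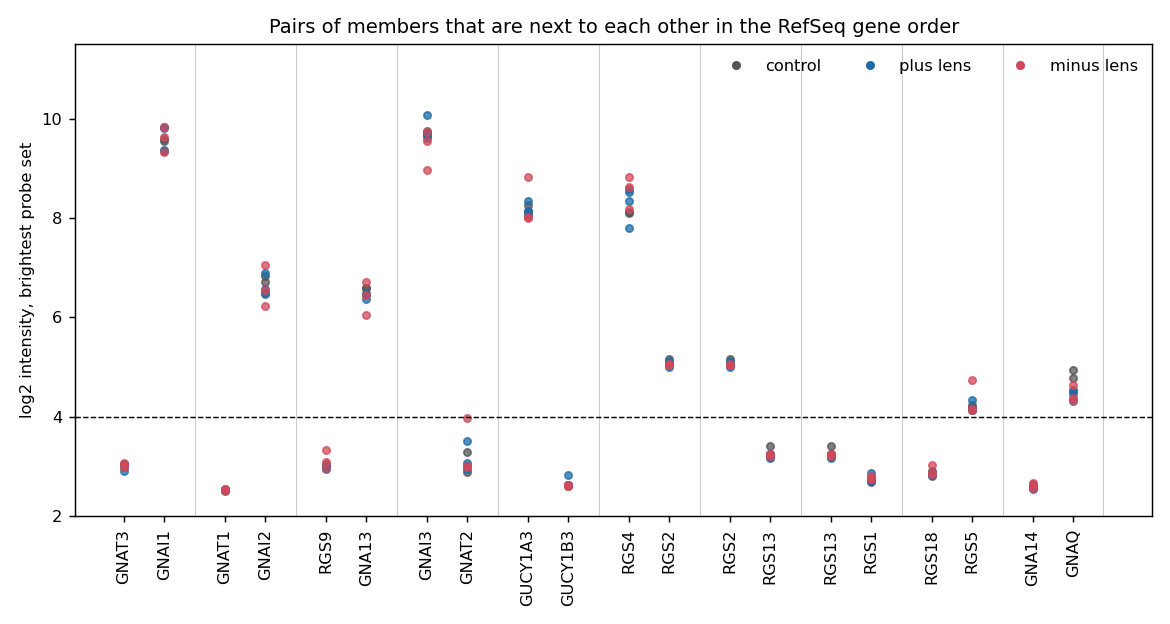
Log2 intensity of the brightest probe set on each of the 9 arrays for the 10 pairs of members that are next to each other in the RefSeq gene order, with colour for the group. The dashed line is the log2 4 filter; in the pairs of GNAT3, GNAT1 and GNAT2 the transducin or gustducin gene lies below it and the G alpha i gene above it on every array, whatever the lens.

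The defining markers of the amacrine layer were read, with 19 of 24 listed amacrine genes tested, 22 having a probe set, and MEIS1, TFAP2C and TH below the filter. Their summed linear intensity was 66062 to 72480 on the controls, 64120 to 71288 with the plus lens and 58172 to 67124 with the minus lens. Of the 19 amacrine markers tested, 4 had a higher minus lens than control mean, beside 44.1% of all tested probe sets, and none passed the test. Their median difference was -0.16 on the log2 scale, against -0.03 over all tested probe sets. Of 16 photoreceptor genes with a probe set, 3 were tested and 13, among them SAG, PDC, CNGA1, GUCA1A and RBP3, stayed below the filter, with sums of 106 to 203, 116 to 185 and 107 to 212. Müller glia markers were tested for 9 of 13 genes with a probe set, with AQP4, GFAP, ID1 and S100B below the filter and sums of 22698 to 32183, 17388 to 27916 and 18592 to 31396, and ganglion cell markers for 9 of 13, with sums of 3658 to 4345, 3492 to 4087 and 3838 to 5052. Of the ganglion cell genes ISL2, NRN1, POU4F2 and SLC17A6 stayed below the filter, and the brightest tested was STMN2, with a control mean of 11.41. Part of the glial and ganglion cell markers was thus read in all 3 groups, with ranges of the sums that overlapped. Bipolar cell markers were tested for 9 of 11 genes, with LRIT3 and NYX below the filter. Their sums were 3929 to 4825, 4232 to 4596 and 5658 to 7820, so all minus lens arrays lay above all controls. Of the 9 markers 6 had a higher minus lens mean, and none passed the test. The median difference over all 9 was 0.81 on the log2 scale. The third minus lens array stood apart over all genes, with a mean correlation with the other arrays of 0.953, against 0.971 to 0.975 for the rest, and the larger differences of members that rest on it are given with and without it. In such bulk samples fewer cells of a type and less RNA per cell cannot be told apart.

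In the comparison of the minus lens with controls, 0 of 64 members passed limma's test at an adjusted p under 0.05, against 1 of 12975 probe sets (0.00771%). At an unadjusted p under 0.05 there were 5 members (7.81%), against 7.03% of all probe sets tested, so the share was near the background. The smallest adjusted p among the members was 0.683 (limma, Benjamini-Hochberg over all 12975). Of the members 24 had a higher and 40 a lower minus lens mean, with a median difference of -0.07 on the log2 scale against -0.03 over all tested probe sets. The differences ran from -0.88 to 0.55. The 95% interval lay within 1 log2 unit of 0 on both sides for 55 members (85.9%), against 83.0% of all tested probe sets.

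All minus lens arrays lay above all controls for 3 members (GNG2, RGS9BP and PDE3B), against 4.34% of all tested probe sets, and below all controls for 3 (RGS7, ADCY2 and ADCY8), against 5.67%. For RGS7 and ADCY8 this held at 1 probe set each. The dimmer RGS7 probe set differed by -0.12 and overlapped the controls. The brightest ADCY8 probe set overlapped too, and at the second the nearest arrays of the groups both rounded to 8.61. Bipolar marker sums were higher on the same minus lens arrays, and their part in these differences was not tested.

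GNG4, a gamma subunit, had the smallest unadjusted p of the set. It read 6.02, 6.66 and 6.18 on the controls and 7.03, 6.85 and 6.63 with the minus lens, with the lowest minus lens array just under the highest control. The difference was 0.55 (SE 0.21, 95% interval 0.08 to 1.03, unadjusted p = 0.0280, limma adjusted p = 0.683). Without 1 array at a time it ran from 0.42 to 0.74. GNG2 read 6.91, 6.82 and 6.87 on the controls and 7.10, 7.01 and 7.16 with the minus lens. The difference was 0.22 (SE 0.11, limma adjusted p = 0.725). Its arrays did not overlap, but its dimmer probe set differed by only 0.04 (SE 0.11). GNG10 read 7.95, 7.95 and 8.03 on the controls and 7.57, 8.56 and 8.07 with the minus lens. That difference was 0.09 (SE 0.25, limma adjusted p = 0.947). All 5 G gamma probe sets tested had a higher minus lens mean, with a median of 0.09, and none passed the test. Only 3 of 5 were higher without the first minus lens array (median 0.22) or without the second (median 0.05), and 4 of 5 without the third control.

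GNAZ read 9.05, 8.96 and 8.97 on the controls against 9.05, 9.28 and 9.33 with the minus lens, where 1 minus lens array fell inside the controls. The difference was 0.23 (SE 0.11, limma adjusted p = 0.725), and 0.02 (SE 0.14) at its other probe set. The other G alpha i and o members differed by -0.30 to 0.11, and the 3 GNAS probe sets by -0.01, -0.11 and -0.32, with SEs of 0.10, 0.17 and 0.27. Without the third minus lens array the GNAS differences were -0.05, 0.07 and 0.01, and that of GNAI3 was -0.07 rather than -0.30. The 13 G alpha probe sets had a median of -0.11, with 4 higher and 9 lower, but 8 higher and 5 lower with a median of 0.03 without that array, and 7 higher and 6 lower with array weights. RGS7 read 7.32, 7.45 and 7.51 on the controls and 7.27, 6.53 and 7.23 with the minus lens, all lower, by a mean of -0.42 (SE 0.21, limma adjusted p = 0.725). Without the second minus lens array, which was the lowest, this was -0.18. RGS9BP read 8.71, 9.02 and 9.08 on the controls and 9.42, 9.08 and 9.08 with the minus lens, a difference of 0.26 (SE 0.17, limma adjusted p = 0.762), or 0.14 without the first minus lens array. The lowest minus lens arrays stood only just above the highest control.

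Among the families with more than 5 probe sets tested, a limit not set in advance, adenylyl cyclase had the most one-sided signs. The limit leaves out G gamma, with 5 of 5 higher. A lower minus lens mean was found for 8 of 9 adenylyl cyclase probe sets, with a median of -0.37, though none passed the test. Only 11.1% were thus higher, beside 44.1% of all tested probe sets. Of the 9, 4 read ADCY1 and 3 read ADCY8 on the same arrays, so their signs are not separate readings. ADCY8 read 10.11, 10.03 and 10.48 on the controls and 10.19, 9.81 and 9.45 with the minus lens at its brightest probe set, a difference of -0.39 (SE 0.20, limma adjusted p = 0.725). Its second probe set read 8.61, 8.68 and 9.21 against 8.61, 8.42 and 6.93, a difference of -0.85 (SE 0.42, limma adjusted p = 0.725). At both the third minus lens array was the lowest of the 9, and without it the differences were -0.21 and -0.32. ADCY2, a cyclase that beta-gamma subunits stimulate, read 4.45, 4.88 and 4.85 on the controls and 4.41, 4.42 and 3.27 with the minus lens, a difference of -0.70 (SE 0.30, unadjusted p = 0.0449, limma adjusted p = 0.690). The same array again held the lowest value, and without it the ADCY2 difference was -0.31.

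The probe sets of ADCY1 disagreed. The 3 brighter ones read 8.42, 8.09 and 8.60 against 8.38, 8.28 and 8.05, then 7.66, 7.73 and 7.93 against 7.74, 7.44 and 7.00, then 6.20, 6.20 and 6.20 against 6.27, 6.11 and 5.12, with differences of -0.13, -0.38 and -0.37 (SE 0.19, 0.19 and 0.27). Without the third minus lens array these were -0.04, -0.18 and -0.01. The dimmest, close to the filter, read 4.26, 3.77 and 4.03 on the controls and 4.16, 4.47 and 4.55 with the minus lens, a difference of 0.37 (SE 0.16, unadjusted p = 0.0455, limma adjusted p = 0.692). The probe sets of the gene thus had no shared direction. On the third minus lens array the adenylyl cyclase probe sets lay a median of -0.76 from the control mean, while all tested probe sets lay a median of -0.08 away. Without that array 8 of 9 were still lower, and the median difference was -0.18 rather than -0.37, while without the first minus lens array it was -0.55. The third minus lens array held the lowest of the 9 values for 23 of the 64 members (35.9%), against 29.4% of all tested probe sets.

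**Figure D3:**
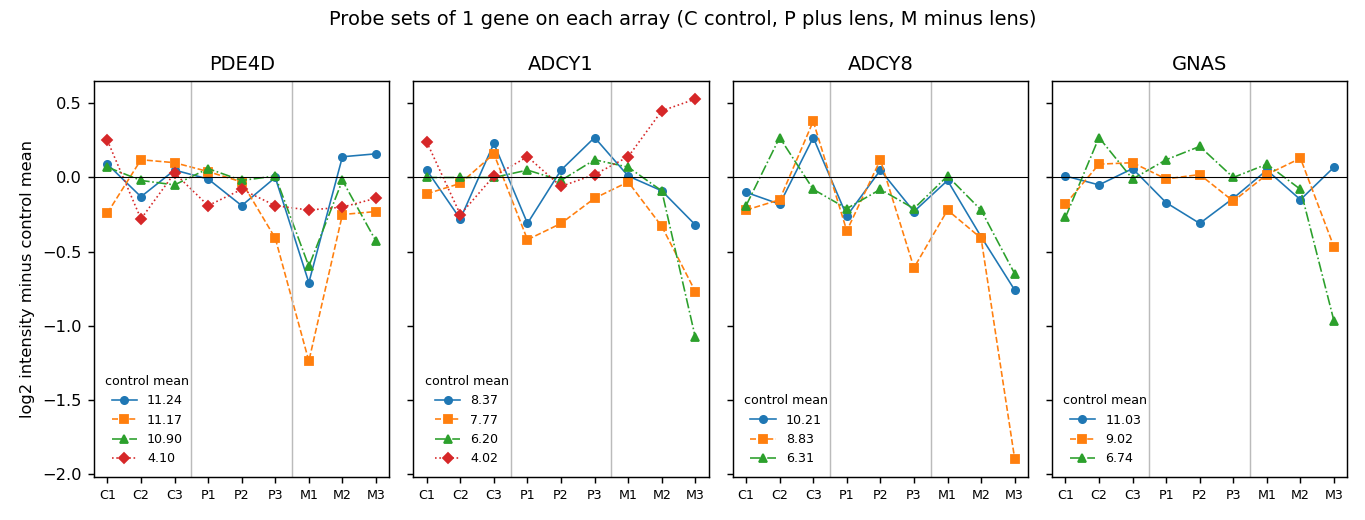
Log2 intensity minus the control mean on each array for the tested probe sets of PDE4D, ADCY1, ADCY8 and GNAS, labelled by their control mean. The third minus lens array (M3) is low at all 3 ADCY8 probe sets and at the ADCY1 probe sets other than the one near log2 4, and the first (M1) is low at the 3 bright PDE4D probe sets.

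Of the 16 tested probe sets named PDE, 5 had a higher and 11 a lower minus lens mean, with a median of -0.10. None passed the test. These take in PDE6D and PDE4DIP, which match by name only. Among the enzymes, 2 of 8 cAMP and 2 of 5 dual phosphodiesterase probe sets had a higher mean. The only tested probe set of the cGMP group, that of the inhibitory subunit PDE6G, differed by 0.00 (SE 0.25). PDE4D read 10.97, 10.88 and 10.85 on the controls and 10.30, 10.88 and 10.47 with the minus lens at 1 probe set, a difference of -0.35 (SE 0.14, unadjusted p = 0.0369, limma adjusted p = 0.683). The other bright probe sets read 11.33, 11.11 and 11.29 against 10.53, 11.38 and 11.40, and 10.93, 11.29 and 11.27 against 9.93, 10.92 and 10.94, with differences of -0.14 (SE 0.22) and -0.57 (SE 0.27). At all 3 the first minus lens array was the lowest of the 9. Without it the differences were -0.22, 0.15 and -0.24.

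PDE4C read 8.09, 8.38 and 8.73 on the controls and 7.97, 8.19 and 6.89 with the minus lens, a difference of -0.72 (SE 0.33, limma adjusted p = 0.721), and -0.32 without the third minus lens array. PDE10A read 9.07, 9.16 and 8.92 against 9.06, 8.51 and 8.39, a difference of -0.40 (SE 0.17, unadjusted p = 0.0485, limma adjusted p = 0.706), and -0.26 without that array. In each the groups overlapped by 1 or more arrays. The dimmer PDE10A probe set differed by -0.23 (SE 0.12). PDE3B lay the other way, with 9.90, 10.11 and 10.09 on the controls and 10.27, 10.24 and 10.15 with the minus lens, a difference of 0.19 (SE 0.12, limma adjusted p = 0.760) and no overlap. The PDE4B probe sets differed by -0.08 (SE 0.14) and 0.00 (SE 0.11), and the dimmer one spanned only 7.79 to 7.98 over the 9 arrays.

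**Figure D4:**
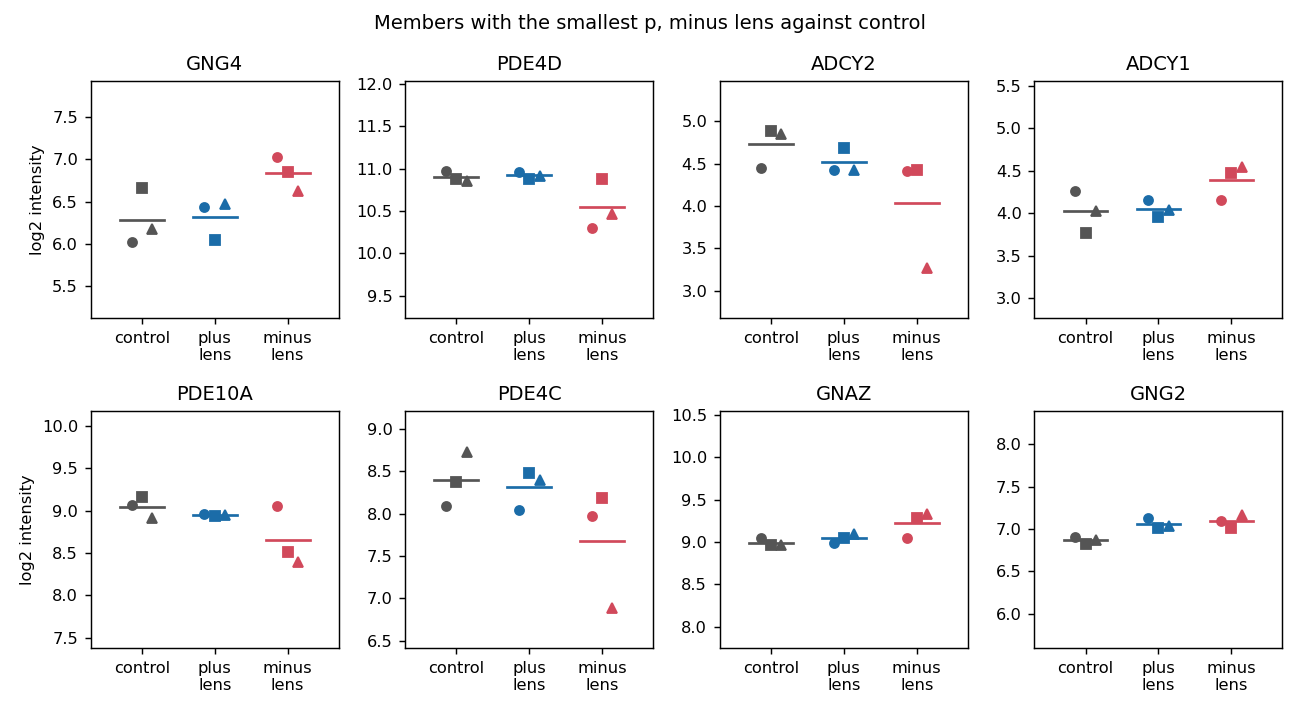
Log2 intensity on each array for the 8 member probe sets with the smallest unadjusted p in either direction between minus lens and control. Of these, 4 have a higher and 4 a lower minus lens mean. Lines mark the group means and marker shapes the replicate number, for which the labels state no pairing. Each panel spans the same log2 range, and GNG2 and ADCY2 are the panels in which the minus lens and control arrays do not overlap.

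In the comparison of the plus lens with controls, 0 of 64 members passed limma's test at an adjusted p under 0.05, against 0.00771% of all probe sets tested, and 0 had an unadjusted p under 0.05, against 1.95%. The smallest adjusted p among the members was 0.9998. Of the members 29 had a higher and 35 a lower plus lens mean, with a median of -0.03 against 0.00 over all tested probe sets and a range of -0.46 to 0.32. The interval lay within 1 log2 unit of 0 for 58 members (90.6%), against 87.9% of all. This comparison shares its control arrays with the one of the minus lens.

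All plus lens arrays lay above all controls for 2 members (GNG2 and GUCY1A2), against 3.15% of all tested probe sets, and below all controls for 4 (GNAQ, GNAS, RGS3 and ADCY1), against 3.52%. The tested probe sets of RGS3 disagreed, with a difference of -0.46 at the one below all controls and 0.30 at the other. GNAQ read 4.54, 4.79 and 4.95 on the controls and 4.45, 4.31 and 4.53 with the plus lens, a difference of -0.33 (SE 0.15, unadjusted p = 0.0542, limma adjusted p = 0.9998). It read 4.37, 4.33 and 4.64 with the minus lens, so the means of both lens groups were below the control mean. The brightest GNAS probe set read 11.04, 10.98 and 11.09 on the controls, 10.86, 10.72 and 10.89 with the plus lens and 11.08, 10.88 and 11.10 with the minus lens. Its plus lens difference was -0.21 (SE 0.10, unadjusted p = 0.0591, limma adjusted p = 0.9998), a small step for a probe set of narrow spread, and its other probe sets differed by -0.05 (SE 0.17) and 0.11 (SE 0.27).

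The ADCY1 probe set with a control mean of 7.77 read 7.35, 7.46 and 7.63 with the plus lens, a difference of -0.29 (SE 0.19, limma adjusted p = 0.9998), while the brighter one differed by 0.00 (SE 0.19). GNAO1 differed by -0.13 (SE 0.12) and -0.25 (SE 0.14) at its probe sets, the second reading 5.24, 5.07 and 5.37 on the controls and 5.08, 4.78 and 5.08 with the plus lens, where the groups overlapped. With the minus lens these probe sets read 5.40, 5.35 and 5.29, and 5.11, 4.94 and 5.09. In the other direction GUCY1A2 read 7.34, 6.95 and 6.98 with the plus lens at the probe set whose controls were 6.93, 6.82 and 6.83, a difference of 0.23 (SE 0.22, limma adjusted p = 0.9998), or 0.10 without the first plus lens array. At its other probe set it read 7.21, 7.63 and 7.44 against 7.20, 7.21 and 6.99, a difference of 0.29 (SE 0.23) with an overlap. Both probe sets thus had a higher plus lens mean, by little more than 1 SE each.

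GNG2 read 7.13, 7.01 and 7.03 with the plus lens at its brighter probe set, a difference of 0.19 (SE 0.11), beside the 0.22 with the minus lens. The dimmer tested GNG2 probe set differed by only 0.02 with the plus lens. RGS9BP read 9.45, 8.95 and 9.26 with the plus lens, 0.28 above the controls (SE 0.17), beside 0.26 with the minus lens. PDE6D read 7.53, 8.07 and 7.48 on the controls, 8.21, 7.88 and 7.97 with the plus lens and 7.99, 8.12 and 7.90 with the minus lens, with differences of 0.32 and 0.31 (SE 0.18). In these 3 genes the lens groups lay on the same side of the control mean, and none passed the test in either comparison (limma adjusted p of 0.725 or more).

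**Figure D5:**
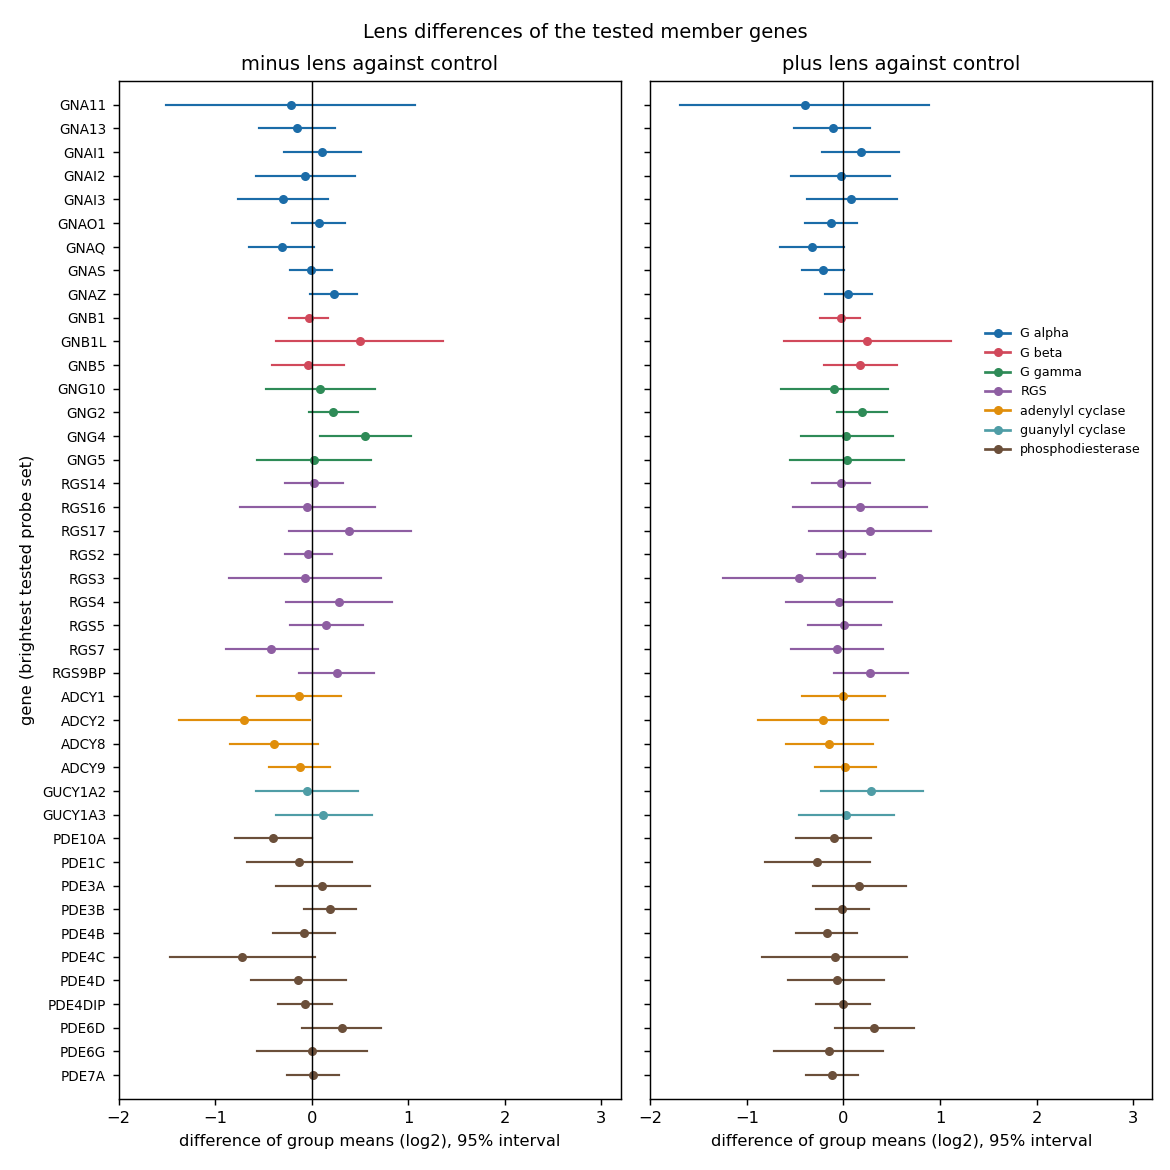
Difference of group means in log2 with its 95% interval for the brightest tested probe set of each of the 42 tested genes, for the minus lens (left) and the plus lens (right) against the same 3 controls. At this probe set only GNG4, ADCY2 and, narrowly, PDE10A have a minus lens interval clear of 0 before adjustment, and no member passed after adjustment in either panel.

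Between the lenses 0 of 64 members passed limma's test at an adjusted p under 0.05, against 0.0154% of all probe sets tested, and 2 (3.12%) had an unadjusted p under 0.05, against 7.08%. Of the members 24 (37.5%) had a higher and 40 a lower mean with the minus lens, beside 45.2% higher among all tested probe sets. The median difference was -0.04, against -0.03 over all tested probe sets. With each array centred on its median, or with quantile normalisation, the split was 33 higher and 31 lower, and it was the same without the third minus lens array, so the lean towards lower values depended on the scaling and on that array. The minus lens arrays lay above all plus lens arrays for 2 members (GNG4 and the dimmest ADCY1 probe set), against 4.53% of all tested probe sets, and below them for 0 members, against 5.15%. GNG4 read 6.44, 6.05 and 6.47 with the plus lens, all under the minus lens arrays, a difference of 0.52 (SE 0.21, unadjusted p = 0.0367, limma adjusted p = 0.689).

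The other member with an unadjusted p under 0.05 between the lenses was the PDE4D probe set that read 10.96, 10.88 and 10.91 with the plus lens, a difference of -0.37 (SE 0.14, unadjusted p = 0.0299, limma adjusted p = 0.689). PDE4C read 8.04, 8.48 and 8.40 with the plus lens, a difference of -0.62 (SE 0.33), or -0.23 without the third minus lens array. GNAI3 read 9.60, 10.08 and 9.68 with the plus lens and 9.54, 9.73 and 8.96 with the minus lens, a difference of -0.38 (SE 0.20, limma adjusted p = 0.738), with overlap, or -0.16 without the third minus lens array. The brightest GNAS probe set was nearest to the threshold in the other direction after GNG4 and ADCY1, with a difference of 0.20 (SE 0.10, limma adjusted p = 0.721). The other tested GNAS probe sets differed by -0.06 (SE 0.17) and -0.43 (SE 0.27), or by 0.13 and -0.11 without the third minus lens array. The F test for any difference among the 3 groups passed 0 of 64 members at an adjusted p under 0.05 (smallest 0.919), against 0.0154% of all probe sets, and 1 member, GNG4, at an unadjusted p under 0.05, against 5.29%. No member had its minus lens and plus lens arrays on opposite sides of all controls.

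Of 42 genes tested, 15 were read by 2 or more tested probe sets, 37 in all. Their probe sets had the same sign of difference for 8 genes between minus lens and control, for 5 between plus lens and control and for 9 between the lenses. Probe sets of the same sign could still differ in size, as those of GNB5 did between minus lens and control. The brighter GNB5 probe set differed by -0.04 (SE 0.16). The dimmer one read 6.64, 5.99 and 6.97 on the controls and 5.84, 6.27 and 4.86 with the minus lens. Its difference was -0.88 (SE 0.43, limma adjusted p = 0.725). Without the third minus lens array the second value was -0.48.

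The rest of the pathway was followed in a list of 126 genes, of which 97 had a probe set and 48 were tested at 71 probe sets. The list held receptors, kinases, scaffolds, phospholipases, targets of cAMP and cGMP, and G protein subunits outside the name patterns. Among the latter, the G alpha subunit GNAL had a control mean of 8.45 ± 0.05 (SD, n = 3). In each of the 3 comparisons 0 of 71 passed limma's test, with 3, 2 and 3 at an unadjusted p under 0.05 for minus lens against control, plus lens against control and minus against plus lens, beside 7.03%, 1.95% and 7.08% of all tested probe sets. The minus lens arrays lay below all controls for 9 of the 71, beside 5.67% of all tested probe sets. The plus lens arrays did so for 7, beside 3.52%. Each lens lay above all controls for 1, beside 4.34% with the minus lens and 3.15% with the plus lens. Higher means were found for 22, 31 and 29 of 71, beside 44.1%, 49.4% and 45.2% of all tested probe sets. The medians were -0.08, -0.04 and -0.03. At 1 of its 2 tested probe sets GRM8, a glutamate receptor coupled to G alpha i, read 5.67, 5.64 and 5.45 on the controls, 5.36, 5.36 and 5.18 with the plus lens and 5.25, 5.09 and 5.14 with the minus lens. Both lens groups lay below all controls, by -0.29 and -0.43 (unadjusted p = 0.0493 and 0.00876, limma adjusted p = 0.9998 and 0.683), while at the other probe set both lens groups overlapped the controls.

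The somatostatin receptor SSTR5 read 5.05, 5.07 and 4.49 on the controls, 5.01, 5.05 and 5.74 with the plus lens and 4.46, 4.20 and 4.40 with the minus lens. VIPR1, a receptor for vasoactive intestinal peptide that couples to G alpha s, read 5.10, 4.94 and 5.34, then 4.69, 4.94 and 4.47, then 5.18, 5.83 and 5.38 in the same order. The lens groups of each did not overlap, and they differed by -0.92 for SSTR5 and 0.76 for VIPR1 (unadjusted p = 0.00397 and 0.00504, limma adjusted p = 0.664 for each). PLCB1, a phospholipase C that G alpha q drives, had a minus lens mean 0.69 above that of the plus lens at 1 of 3 probe sets (unadjusted p = 0.0135, limma adjusted p = 0.674). NOS1AP, an adaptor of neuronal nitric oxide synthase, and DRD5, a dopamine receptor coupled to G alpha s, had lower minus lens than control means, by -0.49 and -0.28 (unadjusted p = 0.0248 and 0.0377, limma adjusted p = 0.683 for each). AKAP13, a scaffold for protein kinase A, read 6.55, 6.35 and 6.49 on the controls and 5.96, 5.62 and 6.20 with the plus lens at 1 of 4 probe sets, a difference of -0.54 (unadjusted p = 0.00989, limma adjusted p = 0.9998).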

How the data were processed

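The deposited value was a linear intensity for each probe set on each array, made by the authors with GCRMA per the submitters' processing notes; its version is not given in the sources used here. The method pulls dim probe sets to a narrow floor and removes changes in total RNA. Log2 of the deposited intensity was used with no pseudocount. Of 38535 probe sets, 842 that were not chicken were left out, and the 12975 that reached log2 4 on at least 3 of 9 arrays were tested in limma 3.58.1 (R 4.3.3), with all 9 arrays in 1 fit, an intensity trend, two-sided tests and Benjamini-Hochberg adjustment over the 12975 at a threshold of 0.05. Residual degrees of freedom were 6 and those of the prior 2.64, and precision is limited by the number of arrays. The limma step was tested on simulated data. Gene names came from the platform annotation, and 78 of the 80 member genes were found in RefSeq (GRCg7b), with 0 symbols changed. The build is not tied to the array, so no coordinates are given, and no sequences were used.

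The minus lens group was taken from sample titles, because its source label names both lenses. The members and gene lists were chosen with earlier results of these data known. Members to be named were up to 4 in each direction with the smallest unadjusted p in each comparison. Up to 3 of the highest control mean in each family were added. GNAO1, GNAQ, GNAS, GNB1, GNB5, RGS4, RGS9, ADCY1, PDE4B and the PDE6 and GUCY2 genes were named whatever their values. Values on every array are given for part of these. For others only control arrays, means or differences are given, with ranges for those below the filter. Members singled out for not overlapping, GNB5 beside its other probe set, GNA11 and RGS7 were chosen after their values were seen. Of other pathway genes up to 3 in each direction were eligible. Alternatives were other filters, pseudocounts, scalings, array weights, a replicate block and leaving out each array.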

Additional observations from a re-analysis of the deposited data

Results flagged for a closer look

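Of the members that the controls kept below the filter, 4 probe sets reached log2 4 on a lens array. GNA12 reached 4.18 on the first minus lens array and PDE9A reached 4.27 on the third. A second GNAI3 probe set reached 4.50 on the second plus lens array, and RGS6 reached 4.16 on that array too. Each was above the filter on fewer than 3 arrays and was not tested.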

How the results depend on the processing

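Under every alternative run, 0 members passed the adjusted threshold in any of the 3 comparisons or the F test (20, 20, 20 and 19 alternatives; smallest adjusted p 0.254, 0.999, 0.322 and 0.439). The 24 differences picked for the smallest unadjusted p, 4 in each direction of each comparison, kept their sign in all 464 refits. They also stayed short of the threshold in all of them. Many of these refits could not change a sign. Other filters, or leaving out an array of the group not compared, kept the difference of means as it was. The 24 were also picked from these same data, so their kept signs are no separate support. Other differences given above did change sign, such as that of a PDE4D probe set, from -0.14 to 0.15 without the first minus lens array. A filter at log2 6 left 40 of the 64 members, and one at log2 5 left 52. The median control level of the tested members was 6.55, and 6.44 to 6.57 when a control array was left out. The labels state no pairing of the samples. Deviations of same-numbered arrays correlated by -0.06 to 0.16, which with 3 arrays a group cannot decide whether samples were paired. With the replicate block 0 members passed. Members near log2 4 are limited by their signal over background.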
